A study of Mus musculus with 6 samples.

Results

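The 10 amino acid transporter genes described here are Slc7a1, Slc7a3, Slc7a5, Slc7a11, Slc3a2, Slc1a4, Slc1a5, Slc38a1, Slc38a2 and Slc6a9, chosen by symbol from 23406 symbols in the series. All 10 have a row, and 9 are named alone in it. Slc7a3 shares its row with the neighbouring gene Snx12, so no value belongs to Slc7a3 by itself. The cells were mouse embryonic fibroblasts with OSKM (the reprogramming factors Oct4, Sox2, Klf4 and Myc) at reprogramming day 7, and their total RNA was sequenced with ribosomal RNA depleted. KO cells carried Adar1 Fl/Fl and received 4-hydroxytamoxifen (4OHT; 2 libraries), and WT cells carried the same alleles and received vehicle (2 libraries). MUT cells carried Adar1 Fl/E861A and received 4OHT (1 library), and HET cells carried the same alleles and received vehicle (1 library). Adar1 encodes the RNA-editing enzyme ADAR1, E861A is known to abolish its editing, and 4OHT is the usual inducer of the recombinase that removes floxed (Fl) sequence. Every group therefore carries at least 1 floxed allele, and a MUT cell that loses its floxed allele keeps the E861A one. The labels name neither the Cre line nor the deleted exons, and no library with 4OHT and intact Adar was analysed here, so loss of Adar cannot be told apart from an effect of 4OHT or of Cre. Nor do they say whether replicates were separate cultures, and the p-values then cover just the spread from library to library, which may be technical.

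Cells take up amino acids through carriers of several families. Slc3a2 encodes the heavy chain CD98hc, which carries a light chain to the plasma membrane, such as LAT1 (Slc7a5, large neutral amino acids) or xCT (Slc7a11, which takes up cystine in exchange for glutamate). When amino acids run short or the endoplasmic reticulum is stressed, kinases phosphorylate the translation factor eIF2 alpha, the transcription factor ATF4 is made, and ATF4 is known to induce many of these carriers together with enzymes of amino acid synthesis. Its binding site, the C/EBP-ATF response element, has a core written here as TGATGNAA (TTNCATCA on the other strand).

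The promoters of the 2 genes in which that core was found are shown because both genes rose in KO. RefSeq promoters (GRCm38.p6, 250 bases before to 50 after a transcript start, 9 promoters) were matched for 6 of the 10 genes: Slc7a1, Slc7a11, Slc3a2, Slc1a4, Slc38a2 and Slc6a9. In capitals are the core matches, on either strand, and the sequences run along the gene's own strand, minus in both.
Slc7a11, chr3:50443564-50443863: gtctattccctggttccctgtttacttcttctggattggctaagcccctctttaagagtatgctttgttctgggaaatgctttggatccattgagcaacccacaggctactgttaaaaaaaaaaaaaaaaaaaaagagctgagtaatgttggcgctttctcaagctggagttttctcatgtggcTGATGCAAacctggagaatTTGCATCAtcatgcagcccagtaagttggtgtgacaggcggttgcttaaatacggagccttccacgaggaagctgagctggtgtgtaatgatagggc
Slc1a4, chr11:20332664-20332963: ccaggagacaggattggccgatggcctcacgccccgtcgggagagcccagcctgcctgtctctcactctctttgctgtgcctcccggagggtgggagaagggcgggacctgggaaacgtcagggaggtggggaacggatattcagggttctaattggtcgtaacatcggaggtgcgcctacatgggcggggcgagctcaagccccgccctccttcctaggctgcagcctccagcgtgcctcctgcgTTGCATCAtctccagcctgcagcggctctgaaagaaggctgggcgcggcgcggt
The Slc7a11 promoter holds a facing pair of cores, TGATGCAA beginning 66 bases and TTGCATCA beginning 47 bases before the start, and the Slc1a4 promoter holds TTGCATCA beginning 4 bases before it. Of all 32851 promoters of this length, 3.97% hold the core at least once and 0.07% hold it 2 or more times. For comparison, the promoter of Asns, an amino acid response gene, holds TGATGAAA beginning 23 bases before its start. That of Chac1 holds TTGCATCA beginning 193 bases before its start, and that of Trib3 holds TTACATCA beginning 14 bases after its start. In the window of Ddit3 none was found, and sequence outside the windows was not searched for any gene. No core was found in these windows of Slc7a1, Slc3a2, Slc38a2 or Slc6a9. The windows of Slc3a2 and Slc6a9 lie inside the gene spans given below, so the outermost annotated starts of these genes were not searched. The antioxidant response core TGACNNNGC was found in windows of 3 of the genes, Slc7a1, Slc38a2 and Slc6a9, and in 12.4% of all promoters. A match describes letters, not binding, which was not measured.

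**Figure D1:**
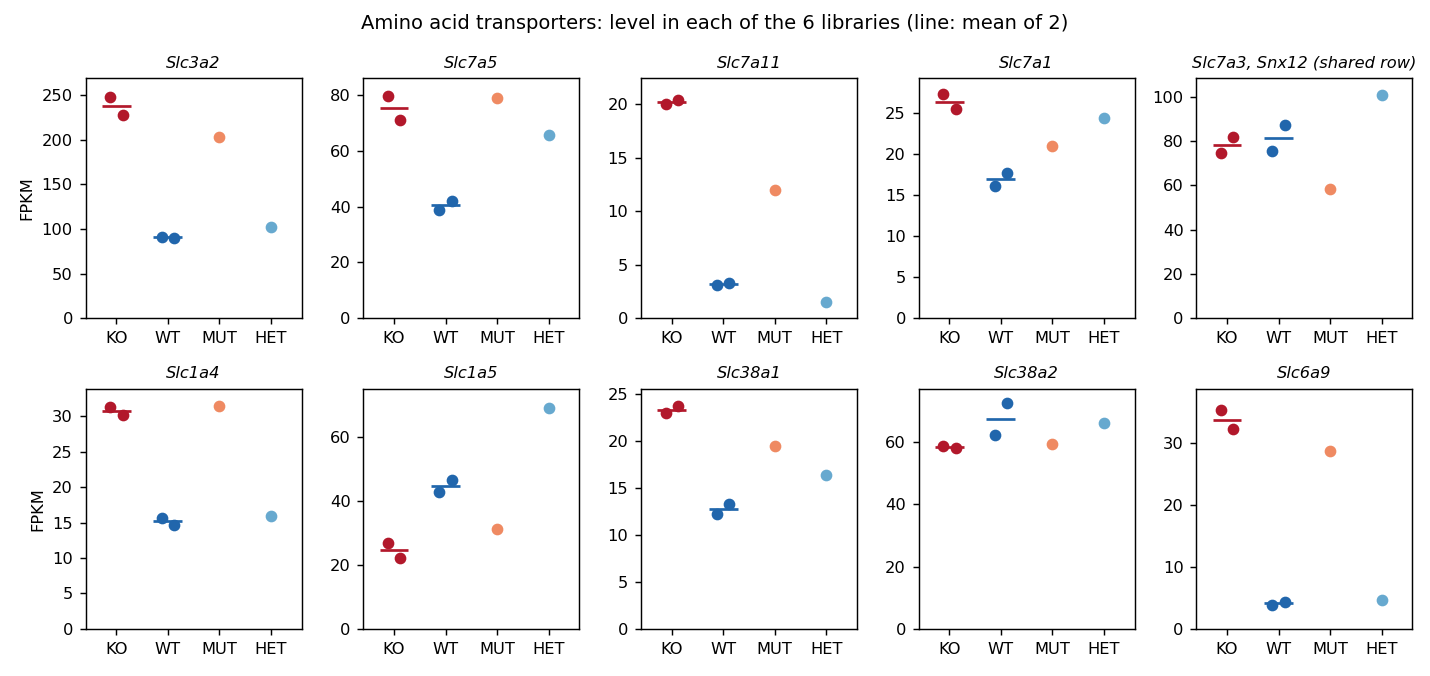
FPKM (vertical axis, from 0) of each transporter row in the KO, WT, MUT and HET libraries, 1 point a library, with a line at the mean of 2 libraries. The KO points lie above the WT points in 7 panels and below them in those of Slc1a5 and Slc38a2. They overlap in the shared Slc7a3 and Snx12 row. Such separation is no test, its share over all genes was not computed, and Slc38a2 was not called.

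The values are FPKM, fragments scaled to transcript length and library total, so levels can be compared between genes, and read totals are not part of them. From the spacing of low values, 15500000 to 21400000 fragments per library were estimated, with fragments assumed to be 200 bases long. The lowest value of a transporter, Slc7a11 in HET at 1.5 FPKM, then stands for about 24.3 fragments per kilobase. Replicates had a Pearson r of 0.995 between the KO and 0.995 between the WT libraries over 12266 tested genes. Adar itself stood at 34.2 and 31.3 FPKM in KO, 19.6 and 19.5 in WT, 33 in MUT and 17 in HET. Since this is the level of the gene as a whole and the deleted exons are not given, it checks none of the labels, and each direction below rests on them. Pluripotent markers were lower in KO than in WT, with a summed level of 16.3 to 31 FPKM in KO, 515 to 645 FPKM in WT, 45.4 FPKM in MUT and 642 FPKM in HET. All 10 were called lower, where 28.2% of all tested genes were, but Nanog, Zfp42, Esrrb and Lin28a passed the filter through vehicle libraries alone. Pou5f1, which encodes Oct4, and Sox2 are also OSKM factors, and these values do not separate added copies from the cell's own genes. Pou5f1 had 222 and 175 FPKM in WT, 272 in HET, 8.03 and 2.5 in KO and 12.8 in MUT. Of 10 fibroblast markers 7 were called lower in KO, against the same 28.2% of all tested genes. Col3a1 was among them, with 65.5 and 56 FPKM in KO and 1054 and 953 FPKM in WT, while Fn1 was higher and Vim and Thy1 were not called. Over all 10 the sum was 3330 to 3418 FPKM in KO and 5746 to 6174 FPKM in WT, most of it in KO from Vim and Fn1. The epithelial list summed to 12.9 to 14.9 FPKM in KO and 158 to 171 FPKM in WT, and the neural list to 42 to 56 FPKM in KO and 147 to 161 FPKM in WT. Of these lists Cldn7, Esrp1, Grhl2 and Syt1 passed the filter through vehicle libraries alone. The macrophage list, in which 3 of 8 genes share a row with others, summed to 558 to 573 FPKM in KO and 780 to 793 FPKM in WT. Its members Ptprc, Csf1r and Adgre1 stayed under 1 FPKM in each library, whereas Laptm5 had 3.31 and 2.83 FPKM in KO, 23.4 and 19.9 FPKM in WT, 5.88 FPKM in MUT and 36.7 FPKM in HET. The endothelial list summed to 5.46 to 5.65 FPKM in KO and 5.95 to 6.13 FPKM in WT, but its genes moved in both directions. Kdr was called higher, with 3.41 and 3.28 FPKM in KO and 0.7 and 0.545 FPKM in WT, while Pecam1, Tek and Erg were called lower. Kdr passed the filter through 4OHT libraries alone and Pecam1 through vehicle libraries alone. In such bulk samples, fewer cells of a type and less RNA per cell cannot be told apart. The part of these marker shifts in the transporter differences was not tested.

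KO against WT compares 4OHT with vehicle in Adar1 Fl/Fl cells, where loss of ADAR1 cannot be told apart from an effect of 4OHT or of Cre. Of the 10 transporter rows 7 rose in KO, where 29.5% of all 12266 tested genes rose (limma on log2(FPKM + 1), Benjamini-Hochberg adjusted p under 0.05). Only Slc1a5 fell, where 28.2% of all genes fell, and Slc38a2 and the shared Slc7a3 row were not called. All 10 passed the filter of at least 1 FPKM in at least 2 libraries, none of them through 4OHT or vehicle libraries alone. The median difference over the 10 rows was 0.85 on the log2 scale, against 0.02 over all tested genes. The genes were proposed with results of these data known, so these counts describe them and are no independent test of them as a group.

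Among the CD98 complexes, the heavy chain Slc3a2 (ENSMUSG00000010095.13, GRCm38 chromosome 19, 8706882 to 8723369, minus strand) stood at 248 and 228 FPKM in KO, against 91.5 and 90.2 FPKM in WT. It was the most abundant of the 10 rows in each of the 6 libraries, and its KO and WT values lie far apart. It averaged 238 ± 14.1 FPKM in KO and 90.9 ± 0.912 FPKM in WT (SD, n = 2 each), 2.62-fold, with a log2 difference of 1.38 (SE 0.10, limma adjusted p = 9.74e-07). The deposited locus of Slc3a2 also spans Snhg1, a host gene of small nucleolar RNAs on the other strand. The row of Snhg1 and Snord22 stood at 294 and 355 FPKM in KO and 158 and 175 FPKM in WT, and rose as well (log2 difference 0.95, limma adjusted p = 5.13e-05). Its part in the Slc3a2 value was not tested.

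The light chain gene Slc7a11 (ENSMUSG00000027737.10, chromosome 3, 49892526 to 50443614, minus strand) had 20 and 20.4 FPKM in KO and 3.07 and 3.29 FPKM in WT. It was the least abundant of the 10 rows in each library, yet it had the second largest rise among them, 6.34-fold (log2 difference 2.34, SE 0.10, limma adjusted p = 4.48e-08). That difference took place 32 from the highest among all 12266 genes. Slc7a5 (ENSMUSG00000040010.10, chromosome 8, 121881150 to 121907694, minus strand) had 79.9 and 71 FPKM in KO and 39 and 42 FPKM in WT, a log2 difference of 0.88 (SE 0.10, limma adjusted p = 3.86e-05). The LAT1 gene thus had the smaller difference of both light chains and the higher level.

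Taking Slc7a5, Slc7a6, Slc7a7, Slc7a8, Slc7a10 and Slc7a11 as the light chains that can pair with CD98hc, their summed level was 113 and 105 FPKM in KO and 61.5 and 67.2 FPKM in WT. Slc3a2 was 2.19 and 2.18 times that sum in KO and 1.49 and 1.34 times in WT, so the heavy chain exceeded the summed light chains in each of these 4 libraries and by more in KO. Slc7a11 made up 17.7% and 19.5% of the light chain sum in KO and 5% and 4.9% in WT. Slc7a6 and Slc7a7, the light chains that exchange cationic for neutral amino acids, fell. Slc7a7 went the furthest, with 2.48 and 2.19 FPKM in KO and 5.76 and 5.47 FPKM in WT (log2 difference -0.99, SE 0.11, limma adjusted p = 3.86e-05). Slc7a6 averaged 10.3 FPKM in KO and 14.2 FPKM in WT (log2 difference -0.43, SE 0.11, limma adjusted p = 0.0085). Slc7a8 stayed under 1 FPKM in each library and was not tested. These light chains were picked for their partner, and the ratios, which have no test, do not overlap between the KO and WT libraries.

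**Figure D2:**
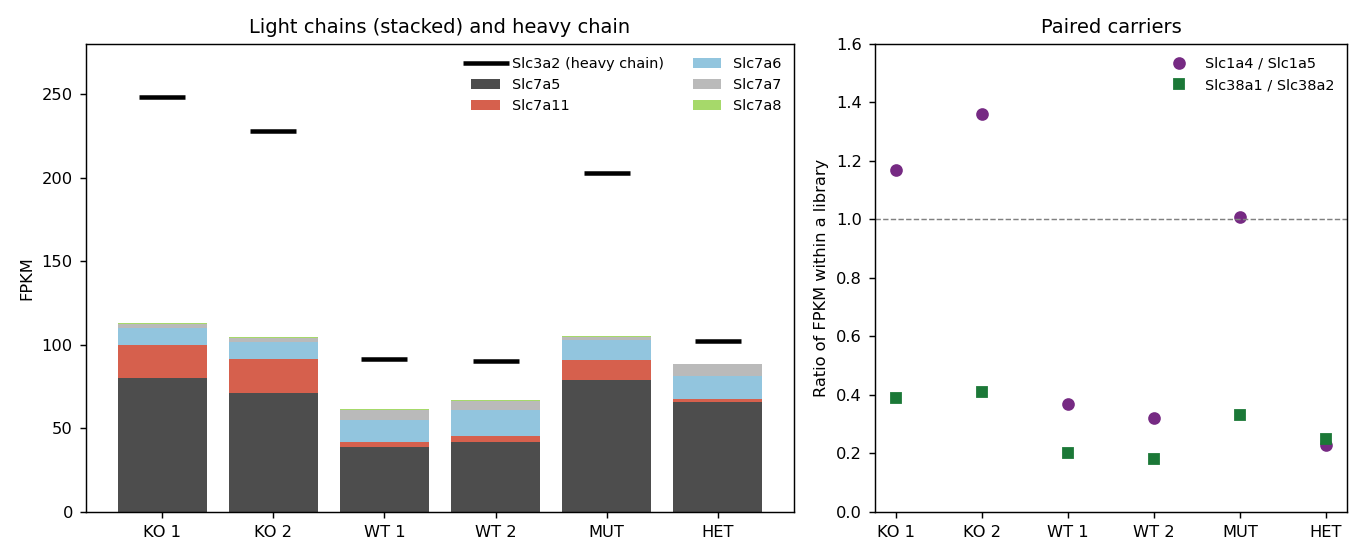
Left, FPKM of the light chain genes stacked for each library (Slc7a10, at or near 0, is left out), with a black mark at the FPKM of Slc3a2; right, the ratio of FPKM within a library for Slc1a4 over Slc1a5 and for Slc38a1 over Slc38a2, with a dashed line at equal levels. Slc3a2 lies above the stack in each library, and the Slc1a4 to Slc1a5 ratio is 1.17 and 1.36 in KO, 0.37 and 0.32 in WT, 1.01 in MUT and 0.23 in HET.

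The glycine transporter gene Slc6a9 (ENSMUSG00000028542.17, chromosome 4, 117834506 to 117875198, plus strand) had the largest rise of the 10. It had 35.2 and 32.2 FPKM in KO, against 3.9 and 4.38 FPKM in WT. It averaged 33.7 ± 2.1 FPKM in KO and 4.14 ± 0.333 FPKM in WT (SD, n = 2 each), 8.14-fold, with a log2 difference of 2.76 (SE 0.11, limma adjusted p = 2.21e-08). It took place 15 from the highest among the 12266 tested genes. B4galt2 and Ccdc24, which overlap Slc6a9 on the other strand, share a row of their own at 27.3 and 22.3 FPKM in KO and 24.9 and 24.6 FPKM in WT. That row was not called (limma adjusted p = 0.974, interval of the log2 difference -0.26 to 0.25).

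The 2 carriers of the Slc1 family for small neutral amino acids moved in opposite directions. Slc1a4 (ENSMUSG00000020142.12, chromosome 11, 20302180 to 20332713, minus strand) encodes ASCT1, a carrier of serine, alanine and cysteine, and had 31.3 and 30.2 FPKM in KO and 15.7 and 14.7 FPKM in WT. It rose 2.02-fold (log2 difference 0.97, SE 0.10, limma adjusted p = 1.29e-05). Slc1a5 (ENSMUSG00000001918.17, chromosome 7, 16781340 to 16798274, plus strand) encodes ASCT2, a main carrier of glutamine, and had 26.7 and 22.3 FPKM in KO and 42.7 and 46.6 FPKM in WT. It fell to 24.5 ± 3.13 FPKM in KO, against 44.6 ± 2.76 FPKM in WT (SD, n = 2 each; log2 difference -0.84, SE 0.11, limma adjusted p = 0.000102). The order of both genes was turned round: Slc1a4 was 1.17 and 1.36 times Slc1a5 in KO and 0.37 and 0.32 times in WT.

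Of the sodium-coupled carriers SNAT1 and SNAT2, which also take up glutamine and alanine, only the gene of SNAT1 was called. Slc38a1 (ENSMUSG00000023169.15, chromosome 15, 96571418 to 96642913, minus strand) had 22.9 and 23.7 FPKM in KO and 12.2 and 13.3 FPKM in WT (log2 difference 0.82, SE 0.10, limma adjusted p = 5.1e-05). Slc38a2 (ENSMUSG00000022462.7, chromosome 15, 96687392 to 96699730, minus strand), a known ATF4 target, had 58.5 and 58.1 FPKM in KO and 62.1 and 72.5 FPKM in WT. Its log2 difference was -0.20 (limma adjusted p = 0.124) with an interval of -0.43 to 0.03, so a rise like that of Slc38a1 lies outside the interval. With quantile normalization Slc38a2 was called lower (log2 difference -0.31, limma adjusted p = 0.0194). Slc38a1 was 0.39 and 0.41 times Slc38a2 in KO and 0.20 and 0.18 times in WT.

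Of the cationic amino acid transporter genes, Slc7a1 (ENSMUSG00000041313.14, chromosome 5, 148327410 to 148399904, minus strand) encodes CAT-1, which takes up arginine and lysine. It had 27.2 and 25.4 FPKM in KO and 16.1 and 17.7 FPKM in WT, the smallest of the 7 rises (log2 difference 0.61, SE 0.10, limma adjusted p = 0.000472). The row of Slc7a3, which encodes the related CAT-3 (chromosome X, 101079210 to 101086020, minus strand), and Snx12 (101097786 to 101222563), a sorting nexin gene, had 74.6 and 81.7 FPKM in KO and 75.5 and 87.2 FPKM in WT. The groups overlap, and the log2 difference of -0.06 (interval -0.29 to 0.18, limma adjusted p = 0.676) describes both genes together.

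**Figure D3:**
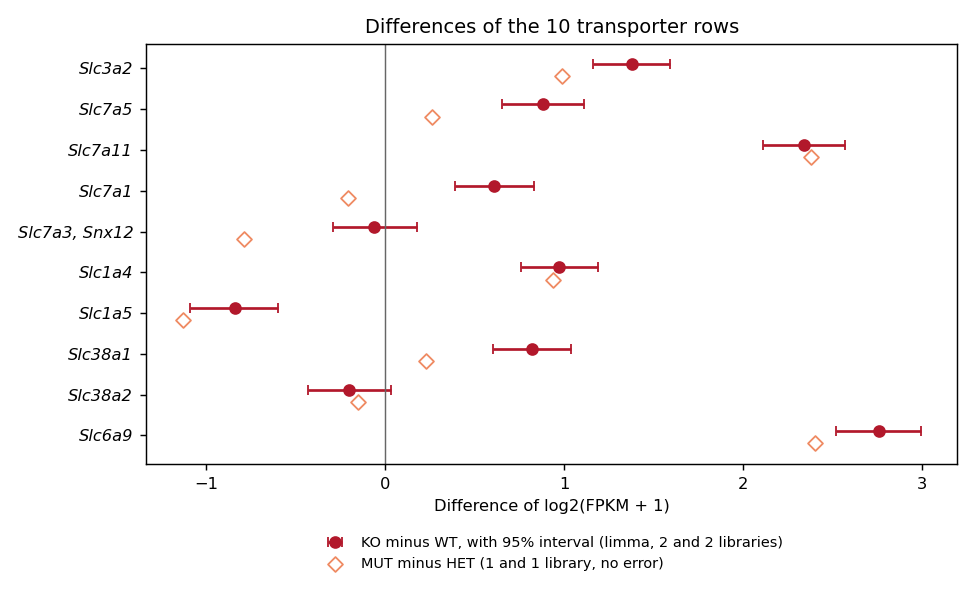
Difference of log2(FPKM + 1) for each transporter row, KO minus WT as filled points with 95% limma intervals and MUT minus HET as open diamonds without error. Both are beyond 2 for Slc7a11 and Slc6a9 and below 0 for Slc1a5, while Slc7a1 lies at 0.61 for KO minus WT and -0.21 for MUT minus HET.

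The order of levels differed between KO and WT. In KO the mean levels ran, from the highest, Slc3a2, the Slc7a3 and Snx12 row, Slc7a5, Slc38a2, Slc6a9, Slc1a4, Slc7a1, Slc1a5, Slc38a1 and Slc7a11. In WT they ran Slc3a2, the Slc7a3 and Snx12 row, Slc38a2, Slc1a5, Slc7a5, Slc7a1, Slc1a4, Slc38a1, Slc6a9 and Slc7a11. In KO, 3 pairs of neighbours in the order overlap between libraries: the Slc7a3 and Snx12 row with Slc7a5, Slc7a1 with Slc1a5, and Slc1a5 with Slc38a1. In WT no neighbours overlap. Slc6a9 thus stood in place 5 in KO and place 9 in WT, and Slc1a5 in place 8 in KO and place 4 in WT.

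MUT against HET bears on editing, since the E861A allele can still give a protein, but no protein was measured. Loss of editing cannot be told apart here from an effect of 4OHT, of Cre or of losing the floxed allele. With 1 library on each side these are values without a test. Slc6a9 had 28.6 FPKM in MUT and 4.61 FPKM in HET (log2 difference 2.40), and Slc7a11 had 12 FPKM in MUT and 1.5 FPKM in HET (log2 difference 2.38). Slc1a5 had 31.1 FPKM in MUT and 69 FPKM in HET (log2 difference -1.13). These 3 rows, 2 higher and 1 lower, passed a 2-fold limit set on log2(FPKM + 1), where 4.93% of all tested genes were that much higher and 8.77% that much lower in MUT. Slc3a2 had 203 FPKM in MUT and 102 FPKM in HET, and Slc1a4 had 31.4 FPKM in MUT and 15.9 FPKM in HET, log2 differences of 0.99 and 0.94 that lie just under that limit. The other rows lay closer together. Slc7a5 had 79 FPKM in MUT and 65.9 FPKM in HET, and Slc38a1 had 19.4 FPKM in MUT and 16.4 FPKM in HET. Slc38a2 had 59.2 FPKM in MUT and 66 FPKM in HET, and Slc7a1 had 20.9 FPKM in MUT and 24.3 FPKM in HET. The Slc7a3 and Snx12 row had 58.4 FPKM in MUT and 101 FPKM in HET (log2 difference -0.79). Of the 10 rows 6 were above 0 in MUT minus HET, where 50.6% of all tested genes were, and 4 were below 0, where 49.4% of all tested genes were. Slc7a11 made up 11.4% of the light chain sum in MUT and 1.7% in HET, and Slc3a2 was 1.92 times that sum in MUT and 1.15 times in HET.

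The difference between both effects, KO minus WT less MUT minus HET, was tested with 4 group means over 6 libraries, with HET and MUT assumed to vary like the replicated groups. It was called for 1 of the 10 rows, Slc7a1, where 4.01% of all tested genes were called. Slc7a1 was higher in KO than in WT, whereas MUT lay below HET (log2 difference of effects 0.82, SE 0.17, limma adjusted p = 0.0297). Leaving out WT 1 gave an adjusted p of 0.0981 and leaving out WT 2 one of 0.0609, and testing unfiltered genes gave 0.167, so the call was lost in these 3 settings. HET, with 24.3 FPKM of Slc7a1, lay above both WT libraries and close to the KO values. The Slc7a3 and Snx12 row, Slc7a5 and Slc38a1 had differences of 0.73, 0.62 and 0.59 that were not called (limma adjusted p = 0.0581, 0.0875 and 0.0939). Leaving out KO 1 brought all 3 under the limit (adjusted p = 0.000594, 0.0494 and 0.0404), and leaving out KO 2 brought the Slc7a3 row (0.00781) and Slc7a5 (0.00512). For Slc7a11 the difference was -0.04 (interval -0.44 to 0.36), and with a pseudocount of 0.1 it was -0.30 (adjusted p = 0.513), MUT minus HET then being 2.92. For Slc1a4 it was 0.03 (interval -0.34 to 0.40).

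With vehicle, HET and WT already differed in some of these genes. Slc7a5 had 65.9 FPKM in HET, against 39 and 42 FPKM in WT, and Slc1a5 had 69 FPKM in HET, against 42.7 and 46.6 FPKM in WT. Slc7a11 went the other way, with 1.5 FPKM in HET and 3.07 and 3.29 FPKM in WT. HET has 1 library, and no test stands behind these differences. Among the 10 rows, its log2 difference from the WT mean was largest in size in these 3 genes. Slc1a4 (15.9 FPKM in HET, 15.7 and 14.7 FPKM in WT) and Slc6a9 (4.61 FPKM in HET, 3.9 and 4.38 FPKM in WT) lay within 0.13 on the log2 scale of the WT mean.

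Over both allele backgrounds, 4OHT against vehicle set 3 libraries (KO 1, KO 2 and MUT) against 3 (WT 1, WT 2 and HET), with the background as a term. It shares 4 libraries with KO against WT and is not independent of it. Here 6 of the 10 rows rose, where 29.2% of all tested genes rose, and Slc1a5 fell, where 28.2% of all genes fell. The 6 were Slc6a9 (log2 difference 2.64, SE 0.11, limma adjusted p = 9.12e-07), Slc7a11 (2.35, SE 0.09), Slc3a2 (1.25, SE 0.10), Slc1a4 (0.96, SE 0.08), Slc7a5 (0.67, SE 0.13) and Slc38a1 (0.63, SE 0.13). Slc7a1 was not called (0.34, SE 0.16, limma adjusted p = 0.101). Without HET or without MUT the background term takes up the other Fl/E861A library, so that both fits compare KO with WT once more (0.61, adjusted p = 0.00047 and 0.000478) and add nothing to that call.

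The other amino acid carriers moved in both directions. A list of 37 further carriers was named for the plasma membrane, but where their proteins lie was not measured. Of these 15 were tested, of which 4 rose, 8 fell and 3 were not called in KO against WT (median -0.39 on the log2 scale). Of all tested genes 29.5% rose and 28.2% fell. Among the 37 genes, 6 were listed at 0 in each library. The remaining genes stayed too low for the filter, and Slc7a4 and Slc38a5 passed it only through 4OHT and only through vehicle libraries. Slc7a2, a cationic carrier gene, had several rows, and summing them gave a log2 difference of 0.75, against 0.41 for the row used. That row rose to 8.94 ± 0.735 FPKM in KO, against 6.47 ± 0.292 FPKM in WT (SD, n = 2 each, limma adjusted p = 0.00804). Leaving out WT 1 (adjusted p = 0.0578) or KO 1 (0.0518) ended that call. Of the called falls in genes averaging 5 FPKM or more, the largest was that of Slc1a3, a glutamate carrier gene, with 3.73 and 2.16 FPKM in KO and 8.29 and 9.02 FPKM in WT (log2 difference -1.32, limma adjusted p = 7.85e-05). Slc38a4 and Slc38a10 followed, at 4.2 ± 0.706 FPKM in KO and 7.48 ± 2.38 FPKM in WT and at 34.3 ± 5.26 FPKM in KO and 46.5 ± 1.64 FPKM in WT. For Slc38a4, leaving out WT 2 (adjusted p = 0.0693) or testing unfiltered genes (0.129) ended the call. For Slc38a10, leaving out WT 1 (adjusted p = 0.0576) or testing unfiltered genes (0.077) did so.

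Carriers of the mitochondrion and the lysosome also moved in both directions, and their counts stand against the same 29.5% of all tested genes that rose and 28.2% that fell. Of 10 mitochondrial carriers 8 were tested, of which 2 rose and 4 fell (median -0.26). Slc25a22, a glutamate carrier gene, rose to 23.9 ± 2.32 FPKM in KO, against 16.1 ± 0.0603 FPKM in WT. The aspartate and glutamate carrier gene Slc25a13 fell to 6.82 ± 0.47 FPKM in KO, against 11.5 ± 1.69 FPKM in WT, and the ornithine carrier gene Slc25a15 to 6.58 ± 0.859 FPKM in KO, against 11 FPKM in each WT library. Of 10 lysosomal transporters 8 were tested, of which 5 rose and 1 fell (median 0.41). Slc38a7, which exports glutamine and asparagine from lysosomes, had 27.3 and 23.5 FPKM in KO and 12.2 and 11.4 FPKM in WT (log2 difference 1.04, SE 0.11, limma adjusted p = 1.74e-05). Pqlc2, which exports cationic amino acids, averaged 12.8 FPKM in KO and 8.07 FPKM in WT, and Slc36a4 fell to 4.08 FPKM in KO, against 6.68 FPKM in WT. No test compared these lists with each other.

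**Figure D4:**
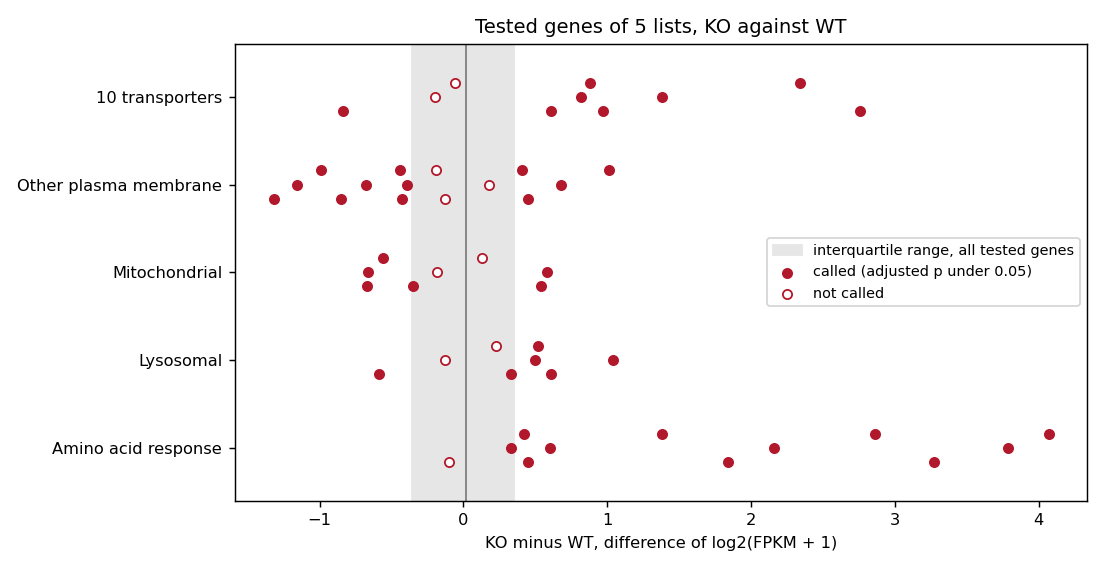
KO minus WT difference of log2(FPKM + 1) for each tested gene of 5 lists, filled where limma called it and open where it did not, with the interquartile range of all tested genes shaded and their median as a line. The 10 transporters reach 2.76 and the amino acid response list 4.07, while the list named for other plasma membrane carriers stays between -1.32 and 1.01.

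The amino acid response list, made of the stress factors upstream of these carriers and of genes known to be induced with them, rose in 11 of 12 members (median 1.61), where 29.5% of all tested genes rose. The list was chosen with their rise here known, so its direction is no independent evidence. Atf4 had 200 and 171 FPKM in KO and 122 and 121 FPKM in WT (log2 difference 0.60, limma adjusted p = 0.000658). Ddit3, which encodes CHOP, rose by 3.79 and Trib3, a pseudokinase induced by ATF4, by 2.86 on the log2 scale, and Asns, which makes asparagine, by 1.38, the same value as Slc3a2. Sesn2, a leucine sensor gene, averaged 48.8 ± 10.4 FPKM in KO and 35 ± 1.99 FPKM in WT (limma adjusted p = 0.0151). Leaving out WT 2 (adjusted p = 0.093) or KO 1 (0.106), or testing unfiltered genes (0.137), ended its call. Eif2ak4, which encodes the amino acid sensing kinase GCN2, was not called, with 6.8 and 7.73 FPKM in KO and 7.61 and 8.13 FPKM in WT.

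The gene whose pattern over the 6 libraries lay closest to that of a transporter was sought in 8408 genes averaging 5 FPKM or more, by the root mean square difference of log2(FPKM + 1) centred on its mean. The 6 points of each gene share the split into 4OHT and vehicle libraries, and closeness is given as a description only. For Slc6a9 it was Trib3 (0.076), and the next gene, Cd274, was further away (0.21). Slc3a2 lay closest to Arnt2 (0.045), then to Mid1ip1 (0.061) and to Phgdh (0.063), an enzyme of serine synthesis. Slc38a1 lay closest to Iars (0.033), an isoleucyl-tRNA synthetase, and Slc7a11 to Apol9a (0.11) and then Nupr1 (0.12), a stress-induced nuclear protein. The closest genes were Atp6v0e2 (0.074) for Slc7a5, Ociad2 (0.070) for Slc7a1, Isyna1 (0.058) for Slc1a5, Yipf6 (0.032) for Slc38a2 and Slc4a7 (0.059) for the Slc7a3 and Snx12 row.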

How the data were processed

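Total RNA libraries of 6 samples were grouped by their titles into KO (2), WT (2), MUT (1) and HET (1). The authors deposited 1 table per library with FPKM values and decimal commas, per the file headers, and no read counts. TopHat2 2.1.1, Bowtie2 2.3.0, Cufflinks 2.2.1, GRCm38 and mm10 are listed in the submitters' processing notes, without roles; annotation and strand use are not stated in the sources at hand, so overlapping antisense genes cannot be told apart.

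Rows without a gene name (1021 of 24879, holding 8.26% to 14.16% of all FPKM) were left out, and for 314 symbols on several rows the one with the highest mean was used. Rows naming several genes were kept whole. Tests used limma 3.58.1 (R 4.3.3) on log2(FPKM + 1) values (trend, two-sided, Benjamini-Hochberg adjusted over 12266 genes at 1 FPKM or more in at least 2 of 6 libraries). Folds on this scale understate changes of low genes. The fits were tested on simulated data. SDs are over FPKM, SEs and 95% intervals are limma's. Gene coordinates are from GENCODE M21 on GRCm38 and promoters from RefSeq. The transporters and lists were chosen with earlier results of these data known. Named genes beyond the transporters were the largest changes of each list with a mean of at least 5 FPKM and 6 fixed response genes; Slc7a6 and Slc7a7 were added for their partner, and the genes of the likeness search beyond the closest one after their values were seen. The likeness result for Slc1a4 is not reported here. The depth is an estimate from low values, and no reads were recovered. Alternatives were another pseudocount, no filter, 2 other scalings, summed rows, left-out libraries, other terms and a replicate block.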

Additional observations from a re-analysis of the deposited data

Results flagged for a closer look

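Slc7a1 stood out because its effect differed between the allele backgrounds by the test of the difference itself: the KO effect exceeded the MUT effect by 0.82 on the log2 scale (limma adjusted p = 0.0297). It had 27.2 and 25.4 FPKM in KO and 16.1 and 17.7 FPKM in WT, and 20.9 FPKM in MUT and 24.3 FPKM in HET, with 1 library behind each of the last 2 values. The adjusted p ranged from 0.000974 to 0.167 over its 9 alternatives.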

How the results depend on the processing

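In KO against WT, the count of transporter rows called higher stayed at 7 under each of the 11 alternatives, and the count called lower was 1 except with quantile normalization (2, with Slc38a2 added). For 4OHT against vehicle, the rows called lower numbered 3 with quantile normalization, with Slc38a2 and the Slc7a3 row. The difference between effects was called in 1 row, in 0 with no filter on low values (where limma called 0 of all genes, with 2814 at an unadjusted p under 0.05), in 2 with median-of-ratios scaling and in 2 with quantile normalization (the Slc7a3 row added in both), and in 0 to 4 with a library left out. Values that changed sign were all near 0 and not called: the Slc7a3 row in KO against WT (0.05 without WT 2 and 0.01 without KO 1; range with a library left out -0.16 to 0.05), and in the difference between effects Slc1a4 (-0.03 with quantile normalization, -0.01 without WT 2; range -0.01 to 0.07) and Slc38a2 (0.06 without WT 2; range -0.16 to 0.06). The cause was not tested. A setting with 1 library left in a group assumes that it varies like the others. Over all genes, the difference between effects was called in 1192 without KO 1 and 904 without KO 2, against 492 with all libraries, and in 333 without WT 1 and 286 without WT 2. With the replicate block, KO against WT called the same 7 higher and 1 lower rows and 7959 of all genes, against 7080 without it. Same-numbered libraries deviated together with an r of 0.183 over genes, but the labels do not say what the numbers share. Depth is an estimate, and HET and MUT have no replicate.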
